A study of Mus musculus with 10 samples.

Results

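The Hox genes are the homeobox genes of the Hoxa, Hoxb, Hoxc and Hoxd clusters. All gene symbols made of Hox, a cluster letter from a to d and a number were taken from a table of normalised read counts, which gave 38 of 18901 genes. They comprised 11 Hoxa, 10 Hoxb, 8 Hoxc and 9 Hoxd genes, and all 38 passed the filter on low values. Hoxc12 was not analysed here.

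Poly(A) RNA of 5 mouse lines from a cross of mf1 and 129 had been sequenced, with 2 libraries for each line. MEF are fibroblasts of mid-gestation embryos that carry an Oct4-GFP reporter, sampled at passages 2 and 4 in DMEM with serum. The other lines are clones derived from such cells with Oct4, Sox2, Klf4 and c-Myc retroviruses and sampled at passages 5 and 25. They are a pre-iPS line, which stopped part of the way (it does not reactivate Oct4 or silence its retroviral transgenes), a 'control' iPS line and, as clones 1 and 2, 'rNetrin-1-derived' iPS lines, whose reprogramming included recombinant Netrin-1, a secreted guidance and survival factor. iPS cells were grown in KSR+LIF medium. For pre-iPS and iPS cells the study's methods give KSR+LIF or KSR 2i+LIF as the medium and gelatin or irradiated MEF as the support. Between MEF and the other lines, medium and cell type cannot be told apart. The 2 libraries of a line are passages of 1 clone or 1 fibroblast culture, so each p-value compares these samples and no independently derived clones.

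Hox proteins are transcription factors that give cells along the body axis and the limbs their position. Genes are numbered by paralog group, and low numbers are switched on earlier and nearer to the head, high numbers later and towards the tail, the digits and the genital tubercle. Trithorax proteins keep active Hox genes on and Polycomb proteins keep silent ones off. Fibroblasts keep the Hox pattern of their place of origin in culture, whereas pluripotent cells hold most Hox promoters silent under marks of both kinds.

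In the mm10 (GRCm38) genome, by GENCODE M21, the Hoxa genes lie on the minus strand at chr6:52155590-52260880. The Hoxb genes lie on the plus strand at chr11:96194316-96368256, the Hoxc genes on the plus strand at chr15:102921103-103036852 and the Hoxd genes on the plus strand at chr2:74668310-74765142. RefSeq (GRCm38.p6) start windows of 300 bases, mostly before the start of the gene, were on hand for 22 of the 38 genes. The 3 windows printed here belong to genes that differed in pattern: Hoxa5 had overlapping values in MEF and iPS cells, Hoxb1 was near 0 in MEF, and Hoxd12 was near 0 in all libraries but MEF. They are from chr6:52204538-52204837 (minus strand), chr11:96365508-96365807 (plus strand) and chr2:74674763-74675062 (plus strand), and capitals mark the Hox-Pbx motif TGATNNAT where it occurs.
Hoxa5: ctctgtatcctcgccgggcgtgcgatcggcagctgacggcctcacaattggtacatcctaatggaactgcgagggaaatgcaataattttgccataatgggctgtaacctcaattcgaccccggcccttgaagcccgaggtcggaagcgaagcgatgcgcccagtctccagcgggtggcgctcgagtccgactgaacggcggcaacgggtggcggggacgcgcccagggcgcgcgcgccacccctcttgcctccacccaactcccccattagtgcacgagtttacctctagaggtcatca
Hoxb1: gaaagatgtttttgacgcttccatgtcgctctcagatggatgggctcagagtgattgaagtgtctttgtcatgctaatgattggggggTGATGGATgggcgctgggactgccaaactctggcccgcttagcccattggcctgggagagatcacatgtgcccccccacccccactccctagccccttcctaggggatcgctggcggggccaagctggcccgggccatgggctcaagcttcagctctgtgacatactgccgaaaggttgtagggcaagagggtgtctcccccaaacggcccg
Hoxd12: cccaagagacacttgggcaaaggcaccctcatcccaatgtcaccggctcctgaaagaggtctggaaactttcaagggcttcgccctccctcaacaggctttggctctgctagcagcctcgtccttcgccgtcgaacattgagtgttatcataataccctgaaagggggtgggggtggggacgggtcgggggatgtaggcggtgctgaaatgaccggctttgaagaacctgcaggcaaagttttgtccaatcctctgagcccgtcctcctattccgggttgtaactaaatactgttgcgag
The windows held 29, 10 and 13 CpG pairs in that order. Over 24 Hox windows the median was 14.5 (4 to 45), against 7 over all 32851 windows. TGATNNAT, read on both strands, was in 4 of 24 Hox windows (16.7%) and in 8.85% of all windows. The retinoic acid receptor half-site AGGTCA was in 7 (29.2%, against 16.3%), CCAAT in 15 (62.5%, against 37.4%) and TATAAA in 4 (16.7%, against 13.6%).

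Values are deposited normalised read counts (pseudo-counts), in which 1 read is worth 0.888 to 1.18 units. The libraries held 38110410 to 52946856 reads on genes. Fibroblast markers (12 genes, Col1a1 among them) summed to 3047000 and 3193000 in MEF, 26160 and 26270 in pre-iPS and 24230 to 41420 in the iPS libraries, and none was at 0. Pluripotency markers (10 genes) summed to 188.2 and 209.9 in MEF, 20640 and 24000 in pre-iPS and 36150 to 85650 in iPS. Macrophage markers summed to 12030 and 12100 in MEF, against 567.4 to 1456 in iPS, and their part in the MEF values was not tested. In bulk RNA, fewer cells of a type and less RNA per cell cannot be told apart.

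MEF had reads of genes of all 4 clusters, with high values up to the last paralog group in Hoxa and Hoxd but not in Hoxb and Hoxc, where Hoxb13 had 1 and 0 reads and Hoxc13 11.8 and 11.6 units. Per kilobase of exon, a scale on which genes can be compared, the highest member in MEF was Hoxd13, a digit and genital gene, at 1150 units per kilobase. The leaders of the other clusters were Hoxb9 (579), Hoxa10 (474) and Hoxc6 (464). In iPS cells the order was another: Hoxa5 led with 322 units per kilobase, with Hoxa10 at 294 and Hoxb1 at 236, while Hoxd13 had 23.7, Hoxc6 31.6 and Hoxb9 37.4. The heat map of all members by library shows these patterns.

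**Figure D1:**
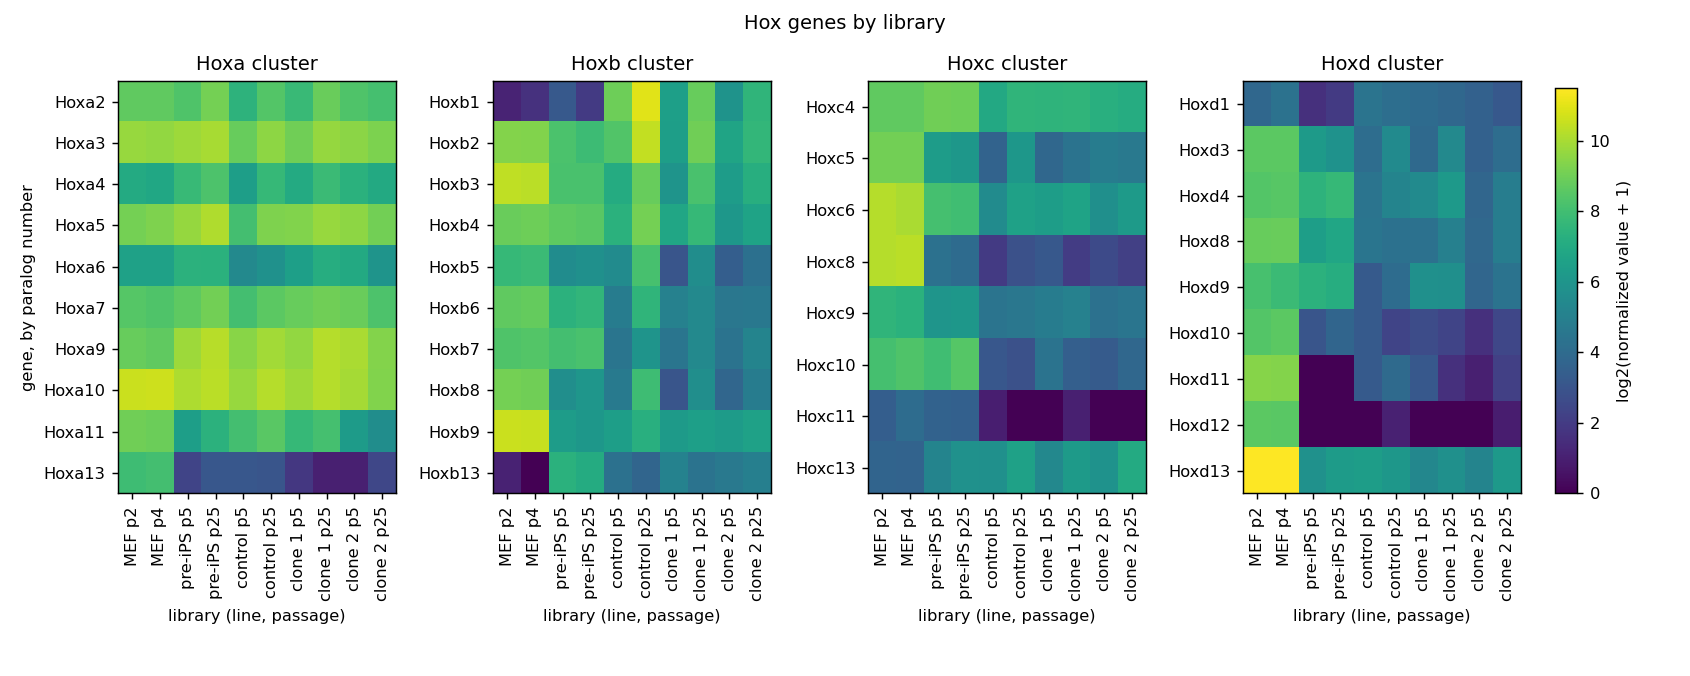
Heat map of the Hox genes described here, 1 panel for each cluster, with genes in paralog order down each panel and the 10 libraries (line and passage) across. Colour is log2(normalised value + 1). The Hoxc and Hoxd panels are bright in the 2 MEF libraries and dark in the iPS libraries, while most of the Hoxa panel has like colours in all 10.

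The first question was which Hox genes differ between fibroblasts and the pluripotent lines derived from such cells. The difference varied with the cluster: Hoxc and Hoxd genes were low in iPS cells, most Hoxb genes were lower and uneven, and the middle of the Hoxa cluster stood near its MEF level. A gene was called at an adjusted p under 0.05 (limma, Benjamini-Hochberg over 17075 genes) where the log2 fold change, on the log2(value + 1) scale, was also 1 or more in size. Setting MEF against the average of the 3 iPS lines, 24 of 38 Hox genes were called higher, where 21.6% of all genes tested were, and 5 were called lower, where 26.6% of all genes were. The higher genes were 2 of 11 Hoxa, 7 of 10 Hoxb, 7 of 8 Hoxc and 8 of 9 Hoxd. The median log2 fold change was 2.95 over the Hox genes and -0.09 over all genes. By cluster it was 0.28 for Hoxa, 2.93 for Hoxb, 3.67 for Hoxc and 4.37 for Hoxd. When libraries were permuted (exact two-sided test), 25 of the 29 called genes reached 0.0357, the smallest p that 28 splits allow. The share of all genes that reached it was not computed. By limma 78.9% of the Hox genes had an unadjusted p under 0.05, against 80.6% of all genes.

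**Figure D2:**
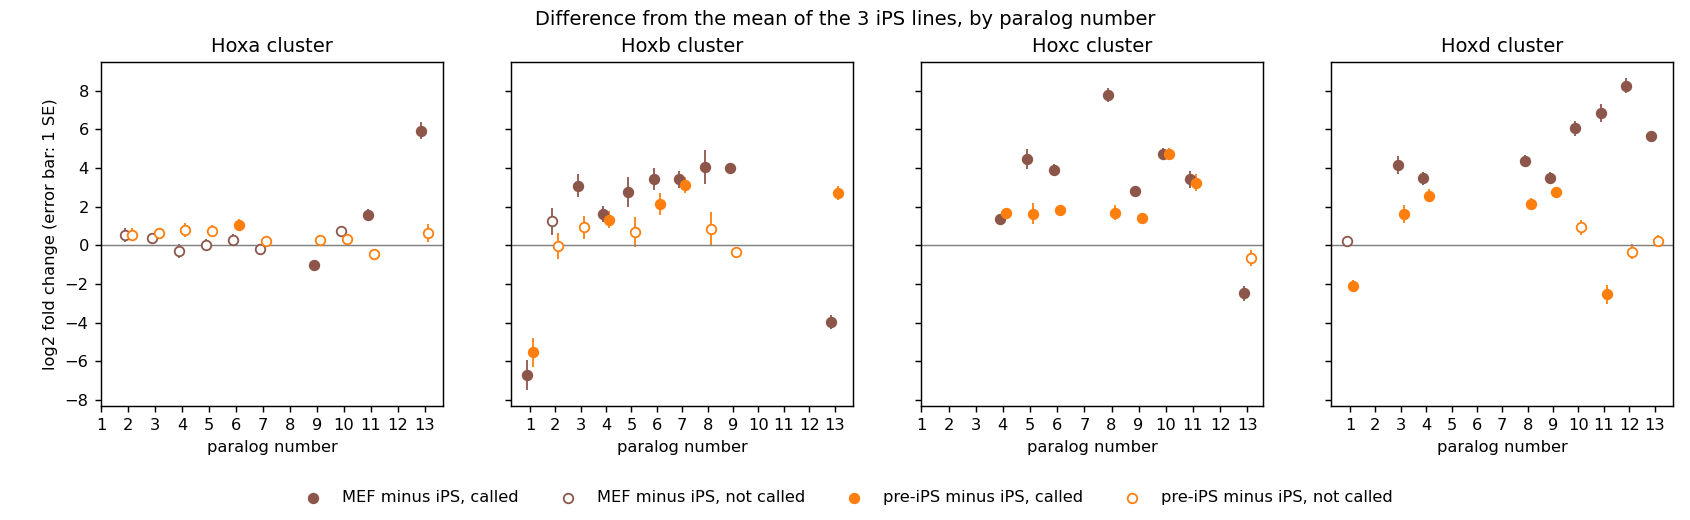
Log2 fold change (y axis, error bars 1 SE) of MEF and of pre-iPS cells against the mean of the 3 iPS lines, by paralog number (x axis) in each cluster; filled points were called and open points were not. MEF points of Hoxa2 to Hoxa7 lie near 0, those of Hoxd3 to Hoxd13 between 3.47 and 8.26.

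The Hoxd cluster showed the widest gap. Hoxd12, of the distal limb, was at 383.5 and 380.0 in MEF, 0 and 1.05 in the control iPS line, 0 and 0 in clone 1 and 0 and 0.887 in clone 2. Those values are 2 reads over 6 iPS libraries, and the ratio of MEF to iPS was 1190 (95% counting interval 327 to 9820, which covers counting error only). Hoxd11, which shapes the forearm, was at 670.8 and 656.7 in MEF and at 0.991, 5.78 and 14.6 (lowest, median, highest) in iPS (log2 fold change 6.84, SE 0.48, adjusted p = 1.96e-06). Hoxd10, of lumbar segments and the limb, was at 341.5 and 382.7 in MEF and at 1.98, 4.32 and 8.70 in iPS (6.05, SE 0.38, adjusted p = 9.59e-07). For these 3 genes no iPS library came near a MEF library. Hoxd13 itself had 2840 and 2888 units in MEF and 35.7, 61.1 and 84.1 in iPS, a log2 fold change of 5.65 (SE 0.28, adjusted p = 2.83e-07). Hoxd1, the member nearest to the head and a gene of sensory neurons, was the exception, with 13.3 and 18.9 units in MEF and 8.06, 14.2 and 20.3 in iPS. These groups overlapped (log2 fold change 0.22, SE 0.29, adjusted p = 0.509), and quantile normalisation turned this value into a call, at 1.43 (adjusted p = 0.00183). Hoxd3 shares 53.1% and Hoxd4 39.1% of annotated exon bases with the transcript Gm28230 on the same strand, so their reads cannot be told apart from it.

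In the Hoxc cluster the same held for the middle members. Hoxc8, which patterns the thorax and brachial motor neurons, was at 1175 and 1257 in MEF and at 2.90, 4.27 and 7.98 in iPS (log2 fold change 7.78, SE 0.37, adjusted p = 2.25e-07). Hoxc10, of the lumbar region and hindlimb, was at 274.1 and 318.2 in MEF and at 6.26, 9.60 and 19.5 in iPS (4.71, SE 0.30, adjusted p = 1.07e-06). Hoxc5, a gene of the neck region, was at 522.5 and 531.9 in MEF and at 11.6, 21.9 and 67.8 in iPS (4.47, SE 0.53, adjusted p = 5.68e-05). None of these groups overlapped. Hoxc4 had the smallest called difference of the cluster, with 411.9 and 407.5 units in MEF and 120.9, 165.6 and 185.8 in iPS (1.38, SE 0.17, adjusted p = 6.47e-05). Hoxc13, which is needed for hair and nails, went the other way. It was at 11.8 and 11.6 in MEF and at 40.8, 66.3 and 129 in iPS, without overlap (-2.48, SE 0.40, adjusted p = 0.000396).

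Hoxb genes were lower in iPS cells but differed among the iPS libraries. Hoxb9, a thoracic gene, was at 1507 and 1473 in MEF and at 76.4, 88.2 and 152.3 in iPS (log2 fold change 3.98, SE 0.23, adjusted p = 5.78e-07). Hoxb8, known from microglia and the spinal cord, was at 540.4 and 520.6 in MEF. In iPS it ranged over 7.09, 26.5 and 239.9 (4.06, SE 0.87, adjusted p = 0.0023). Hoxb6 was at 417.7 and 439.9 in MEF and at 22.8, 29.5 and 180.4 in iPS (3.42, SE 0.56, adjusted p = 0.000461). The iPS values stayed below MEF for all 3 genes, and the control line at passage 25 was the highest of them each time. For Hoxb4, a gene of blood stem cells, and Hoxb5 that library was above both MEF libraries: Hoxb4 had 552.7 units there against 466.3 and 491.6 in MEF, and Hoxb5 280.5 against 208.1 and 228.8. Hoxb2, of the hindbrain, was not called (1.24, SE 0.69, adjusted p = 0.126), with 658.5 and 631.5 in MEF and 85.2, 263.6 and 1382 in iPS. Without the control line at passage 25 Hoxb2 was called, at 1.58 (adjusted p = 0.0466), and 29 Hox genes were called in all, 25 of them higher in MEF. Annotated exons of Hoxb3os, on the other strand, cover 52.9% of Hoxb3 and 27.3% of Hoxb2, and the library kit does not mark strand.

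The 2 Hoxb genes called lower in MEF lie at the ends of the cluster. Hoxb1, a hindbrain gene that retinoic acid activates early, had 1.23 and 2.10 units in MEF, 3 reads in all. It was at 495.1 and 2014 in the control iPS line, 87.9 and 452.7 in clone 1 and 59.5 and 181.0 in clone 2. Set against MEF, iPS had a ratio of 312 (95% counting interval 107 to 1510). Hoxb13, a gene of the tail bud and prostate, had 1 and 0 reads in MEF and 12.5, 21.7 and 32.8 units in iPS, a ratio of 41.8 (7.38 to 1660). Every iPS library was above both MEF libraries for both genes (adjusted p = 4.16e-05 and 1.15e-05).

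The Hoxa cluster stood apart from the others. Hoxa5, a gene of lung and thoracic development, was at 545.9 and 612.5 in MEF, 266.9 and 617.4 in the control iPS line, 631.3 and 836.6 in clone 1 and 747.8 and 525.1 in clone 2. MEF lay inside the iPS range, and the log2 fold change was 0.02 (SE 0.30, adjusted p = 0.95). Hoxa3, of the pharyngeal arches and thymus, was at 842.8 and 800.5 in MEF and at 457.4, 656.4 and 818.1 in iPS (0.39, SE 0.22, adjusted p = 0.126). Hoxa2, which sets the identity of the hyoid arch, was at 418.9 and 412.8 in MEF and at 170.2, 298.0 and 465.0 in iPS (0.55, SE 0.35, adjusted p = 0.179). The values of Hoxa4, Hoxa6 and Hoxa7 also overlapped, with fold changes of -0.28 (SE 0.36), 0.28 (SE 0.30) and -0.20 (SE 0.21) and adjusted p of 0.487, 0.408 and 0.393. A p that misses the threshold does not show that the levels are equal, and the standard errors leave room for moderate differences. Hoxa10, of the uterus and lumbar region, was at 1524 and 1578 in MEF and at 637.1, 959.5 and 1182 in iPS, without overlap. Its adjusted p was 0.00759, but the log2 fold change of 0.72 (SE 0.19) was under 1.

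Hoxa13, Hoxa11 and Hoxa9 were called. Hoxa13, which with Hoxd13 forms the digits, was at 244.9 and 268.9 in MEF and at 0.991, 3.56 and 7.73 in iPS (log2 fold change 5.92, SE 0.45, adjusted p = 2.95e-06). Hoxa11, of the forearm and kidney, was at 514.0 and 486.9 in MEF and at 48.4, 237.4 and 377.5 in iPS (1.57, SE 0.29, adjusted p = 0.000962). Hoxa9, a blood progenitor gene, was higher in iPS: 454.4 and 417.4 in MEF against 668.5, 866.1 and 1199, without overlap. Its fold change of -1 (SE 0.23, adjusted p = 0.00334) stood at the threshold and dropped under 1 in 6 alternative fits.

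Summed values show the same contrast between clusters. The sum of the Hoxa genes was 5303 and 5297 in MEF, 5199 and 6734 in pre-iPS and 3509 to 6597 in the iPS libraries. As a percent of the MEF mean, Hoxa stood at 92.5 ± 25.4% (SD, n = 6) in iPS, Hoxb at 31.5 ± 33.8% (18.2% without the control line at passage 25), Hoxc at 10.0 ± 2.02% and Hoxd at 3.36 ± 0.961%. Hoxa genes made up 26.2% of all Hox values in each MEF library and 52.3 to 84.6% in the iPS libraries. By paralog group the anterior genes (1 to 3) stood at 74.2 ± 54.3% of MEF in iPS, the central genes (4 to 8) at 27.6 ± 9.24% and the posterior genes (9 to 13) at 25.9 ± 5.15%. The spread of the anterior group came with 1 library, the control line at passage 25, with a sum of 6727 against 3848 and 3694 in MEF and 1382 to 3324 in the other iPS libraries.

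**Figure D3:**
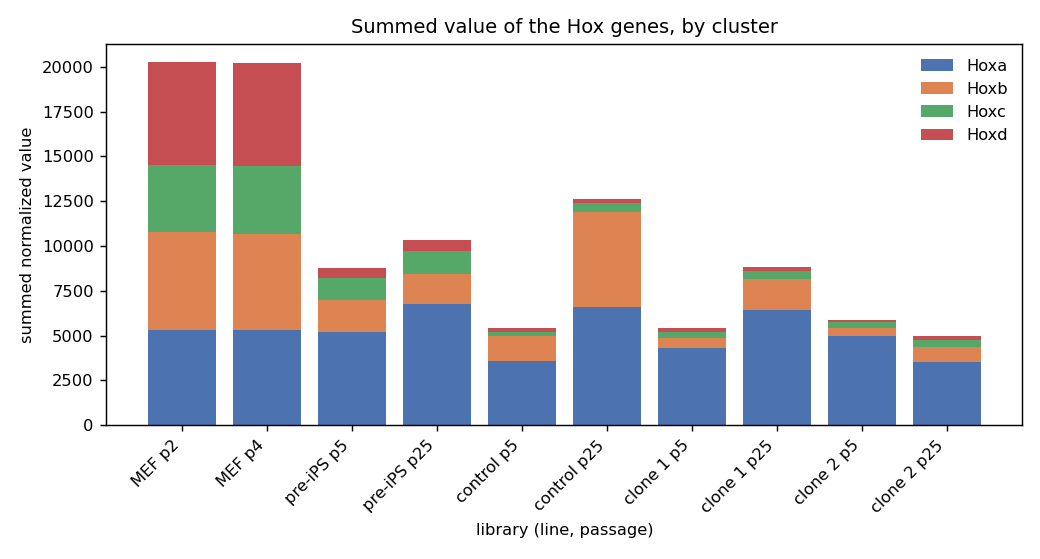
Summed normalised value (y axis) of the Hoxa, Hoxb, Hoxc and Hoxd genes, stacked, in each of the 10 libraries (x axis). The total is 20260 and 20210 in MEF and 4946 to 12620 in iPS, and the Hoxa part changes least.

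Fibroblast markers were measured in the same libraries. Per gene, the median iPS level over Hoxa2 to Hoxa10 (8 genes) was 97.4% of MEF (62 to 205%). Over the 12 fibroblast markers it was 1.49% (0.12 to 19.1%), and over 21 other positional regulators of fibroblasts and limb (Tbx, Pitx, Hand and related genes) it was 9.93% (1.14 to 112%). The median over the Hoxd genes was 4.78%. The part of remaining fibroblast RNA in the Hox values was not tested.

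**Figure D4:**
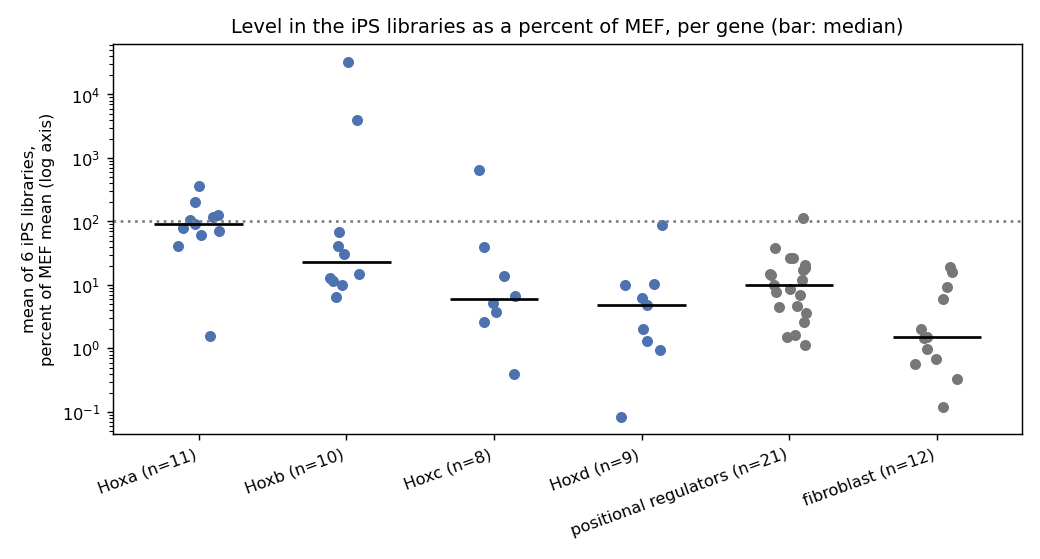
Level of each gene in iPS cells (mean of 6 libraries) as a percent of the MEF mean, on a log axis, for the 4 Hox clusters, other positional regulators and fibroblast markers; each point is 1 gene, the bar is the median and the dotted line marks 100%. Points of the Hoxa cluster gather near the line, with a median of 90.5%, and those of Hoxc (6%), Hoxd (4.78%) and the fibroblast markers lie well below it.

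Genes that work with or on the Hox clusters were taken from fixed lists. Of the 21 positional regulators, 20 were higher in MEF than in iPS, where 21.6% of all genes were. Their median log2 fold change was 3.41, and Hand2 (6.55), Tbx5 (5.92), Pitx1 (5.88) and Prrx2 (5.28), all limb patterning genes, had the largest. Hand2 was at 843.1 and 811.0 in MEF and 2.90 to 19.7 in iPS. Tbx3, at 726.3 ± 32.0 (SD, n = 2) in MEF and 815.8 ± 441 (n = 6) in iPS, was not called. Of 9 TALE genes, whose Meis and Pbx proteins bind DNA together with Hox proteins, 3 were higher in MEF, Meis3 (2.25) and Meis1 (1.33) among them. Pbx4 was lower (-1.65), where 26.6% of all genes were, and the list median was 0.66.

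Among 14 Polycomb genes, which repress Hox clusters, 3 were higher in MEF, Bmi1 (1.35) and Cbx8 (1.32) among them, where 21.6% of all genes were. Another 5 were lower in MEF, where 26.6% of all genes were: Cbx7 (-4.35), Phc1 (-3.33), Jarid2 (-2.72), Ezh2 (-1.57) and Suz12 (-1.35). Of 10 Hox activators, which are trithorax genes and retinoic acid receptors, 2 were lower in MEF, Wdr5 (-1.57) and Ash2l (-1.37). None was higher, and the shares over all genes were the same 26.6% and 21.6%. The 3 tested ParaHox and Cdx genes are relatives of the Hox genes, and the Cdx genes among them switch on trunk Hox genes. All 3 were lower in MEF, where 26.6% of all genes were. None reached a value of 10 in MEF, so each passed the filter on low values only through other lines. The shared direction therefore follows in part from the filter. Cdx2 was at 0 in both MEF libraries and at 5.37 to 19.5 in iPS, and Cdx1 had 1 and 0 reads in MEF and 16.4 to 87.6 units in iPS. Gsx1 differed by -1.53.

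Genes inside or beside the clusters did not move as one. Evx2, next to Hoxd13, was at 40.2 and 39.1 in MEF, 0 in both pre-iPS libraries and 0 to 1.05 in iPS. Evx1, next to Hoxa13, had 0 and 1 reads in MEF and 28.7 to 177.3 units in iPS. Hoxa11as, the antisense RNA of Hoxa11 (listed as Hoxa11os in RefSeq), was higher in MEF (1.89, SE 0.19, adjusted p = 2.18e-05), and its exons overlap 35% of Hoxa11. Mira, the other tested noncoding RNA of the clusters, was not called (-0.11). Of 16 flanking genes 6 were lower in MEF, among them Calcoco2 (-5.94), Ttll6 (-5.63), Nfe2l3 (-3.44) and Hnrnpa1 (-1.47), and none was higher. Over all genes 26.6% were lower and 21.6% higher.

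The second comparison asked where the partially reprogrammed line stands. Pre-iPS cells had no read of Hoxd11 or Hoxd12 and few of Hoxa13, Hoxc8 and Hoxd10, but 7 of 8 Hoxc genes (all but Hoxc13), Hoxb7 and Hoxd9 were above the iPS level. Against the iPS lines 16 Hox genes were called higher in pre-iPS, where 4.71% of all genes were, and 3 were lower, where 11.6% were. The higher genes were 7 of 8 Hoxc, 4 of 10 Hoxb, 4 of 9 Hoxd and 1 of 11 Hoxa, and the median was 0.82 against 0.00 over all genes. Without the pre-iPS library of passage 5 the number higher was 10, and without that of passage 25 it was 11. Under quantile normalisation it was 18 higher and 1 lower, while the split over all genes moved from 804 higher and 1977 lower to 1456 and 1412.

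Hoxc10 was at 253.0 and 349.5 in pre-iPS and at 6.26, 9.60 and 19.5 in iPS, a log2 fold change of 4.72 (SE 0.30, adjusted p = 1.33e-05). In MEF it was at 274.1 and 318.2, inside the pre-iPS range (0.01, SE 0.37, adjusted p = 0.988). Hoxb7 was at 263.2 and 290.0 in pre-iPS and at 19.8, 28.1 and 61.5 in iPS (3.13, SE 0.42, adjusted p = 0.000661), and Hoxb7 in MEF, at 326.4 and 344.9, was 0.28 above pre-iPS (SE 0.51, adjusted p = 0.646). Both genes are of the trunk, and their pre-iPS values were far above every iPS library.

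Hoxd9, of the lumbar region and limb, was at 164.2 and 142.1 in pre-iPS and at 8.70, 17.7 and 53.3 in iPS (2.76, SE 0.27, adjusted p = 0.000135). Hoxd4, a neck gene, was at 170.4 and 207.4 against 12.9, 32.1 and 70.8 (2.57, SE 0.35, adjusted p = 0.000673). Neither overlapped. Hoxc11, a hindlimb gene, had 22 reads in pre-iPS and 2 over the 6 iPS libraries, a ratio of 33.8 (95% counting interval 8.32 to 297). Hoxb13 had its highest values in pre-iPS, 162.2 and 132.5, above 12.5 to 32.8 in iPS (2.69, SE 0.37, adjusted p = 0.000747). Against the single read in MEF the ratio was 263 (46.9 to 10400).

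The 3 genes lower in pre-iPS than in iPS were Hoxb1, Hoxd1 and Hoxd11. Hoxb1 was at 8.16 and 2.88 in pre-iPS, below every iPS library (59.5 to 2014; log2 fold change -5.53, SE 0.76, adjusted p = 0.000772). Its 11 reads there stood against 3 in MEF, a ratio of 3.25 (0.859 to 18.1), which includes 1. Hoxd1 was at 2.04 and 2.88 in pre-iPS and at 8.06, 14.2 and 20.3 in iPS (-2.08, SE 0.29, adjusted p = 0.000821). Hoxd11 had no read in either pre-iPS library, so iPS was at least 2.13-fold higher with a floor of 3 reads for each library. Under quantile normalisation Hoxd11 and Hoxd1 were no longer called, at -1.15 and -0.93.

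Against MEF, 16 Hox genes were called lower in pre-iPS, where 20.9% of all genes were, and 3 were higher, where 22.4% were. Lower genes were 7 of 9 Hoxd, 4 of 8 Hoxc, 3 of 10 Hoxb and 2 of 11 Hoxa. The median was -1.09 over the Hox genes, with or without the genes at 0 set to their bound, and 0.06 over all genes. Hoxd11 and Hoxd12 had no read in pre-iPS, and MEF was at least 223-fold and 129-fold higher. Hoxc8 had 18.4 and 15.4 units in pre-iPS against 1175 and 1257 in MEF (-6.09, SE 0.46, adjusted p = 4.69e-06). Hoxd13 had 55.1 and 78.7 against 2840 and 2888 (-5.42, SE 0.35, adjusted p = 1.92e-06). Hoxa13 had 4.08 and 7.68 against 244.9 and 268.9 (-5.28, SE 0.55, adjusted p = 3.31e-05), and Hoxd10 7.14 and 12.5 against 341.5 and 382.7 (-5.11, SE 0.46, adjusted p = 1.48e-05). All these pre-iPS values lay far below MEF.

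The 3 higher genes were Hoxb13, Hoxc13 and Hoxa9. Hoxc13 was at 35.7 and 54.7 in pre-iPS and 11.8 and 11.6 in MEF (1.83, SE 0.49, adjusted p = 0.00879), a call that ended without the pre-iPS library of passage 25 (1.53, adjusted p = 0.0593) and under quantile normalisation (1.20, adjusted p = 0.0611). Hoxa9 was at 906.9 and 1240 in pre-iPS against 454.4 and 417.4 (1.28, SE 0.28, adjusted p = 0.00313). In sums, pre-iPS stood at 113 ± 20.5% of MEF (SD, n = 2) for Hoxa, 32.0 ± 0.919% for Hoxb, 33.9 ± 1.06% for Hoxc and 10.2 ± 0.634% for Hoxd. The comparisons of pre-iPS with iPS and with MEF share the pre-iPS libraries.

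Beside these differences, no fibroblast marker of 12 and no TALE gene of 9 was called between pre-iPS and iPS cells, where 16.3% of all genes were. Of the 21 positional regulators 1 was higher in pre-iPS, where 4.71% of all genes were, and 3 were lower, where 11.6% were. The lower ones were Irx3 (-2.43), Tbx3 (-1.52) and Prrx2 (-1.39). The higher one, Tbx15 (1.76), stood at 4324 ± 372 (SD, n = 2) in pre-iPS and 1329 ± 393 (n = 6) in iPS. Of the 10 activators Rarb, a retinoic acid receptor, was higher in pre-iPS (1.28), and of the 14 Polycomb genes Cbx7 was lower (-1.44). Against MEF, 19 of 21 positional regulators, 3 of 9 TALE genes and 12 of 12 fibroblast markers were lower in pre-iPS, where 20.9% of all genes were. The TALE gene Pbx4 was higher (2.12, adjusted p = 2.43e-05), where 22.4% of all genes were.

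**Figure D5:**
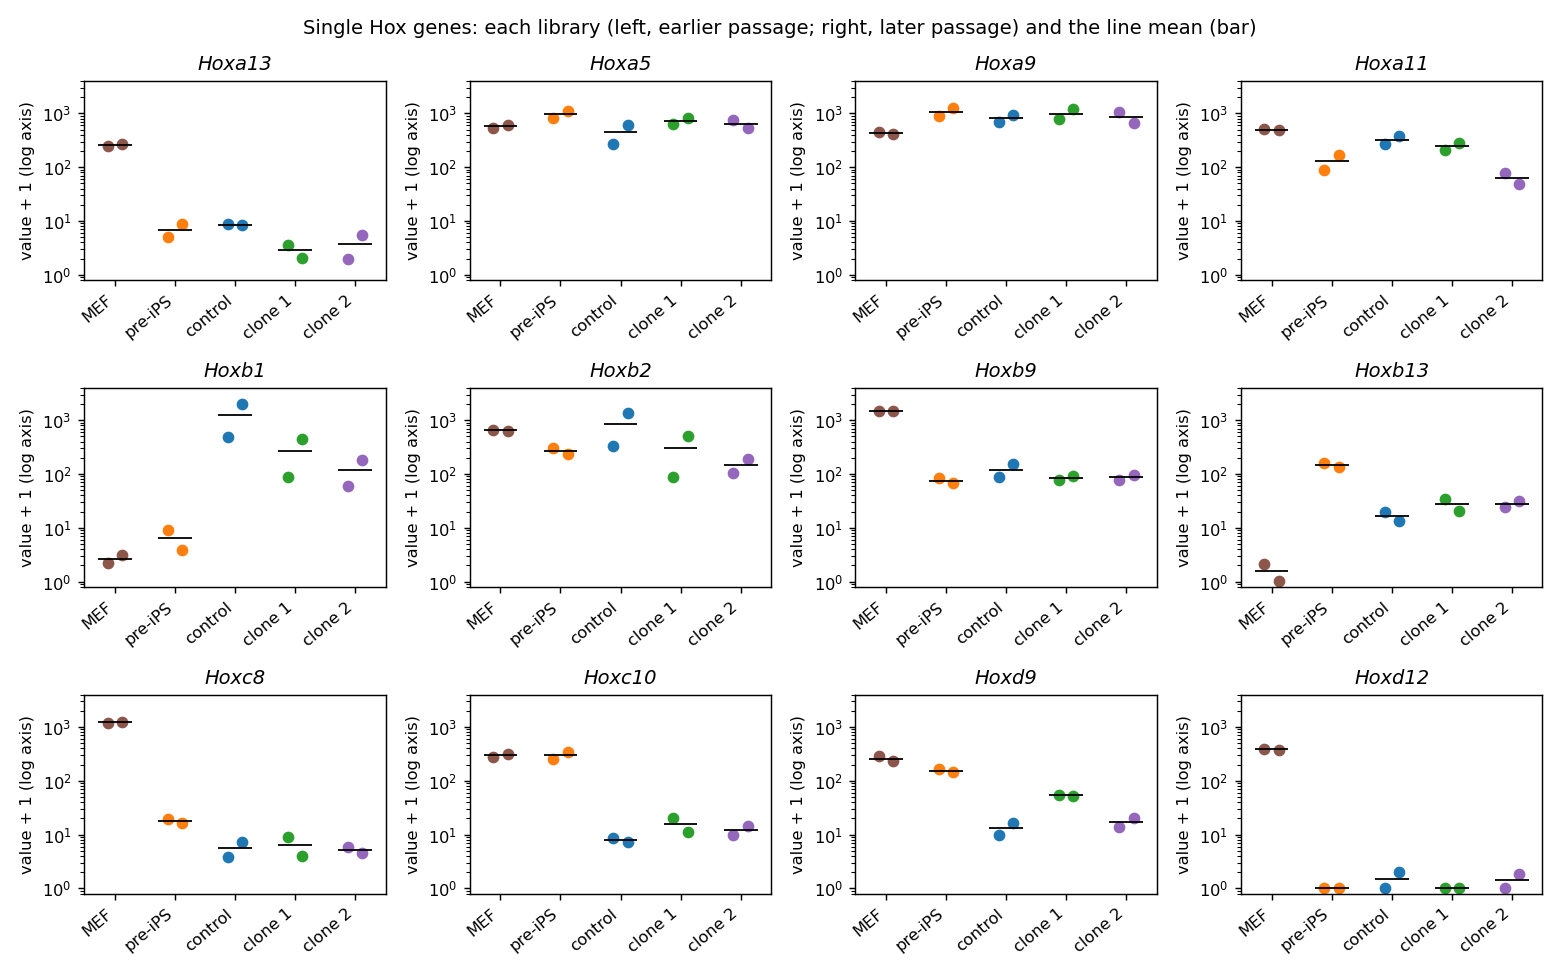
Normalised value + 1 (y axis, log scale) of 12 Hox genes in each library, by line; the left point is the earlier and the right point the later passage, and the bar is the line mean. Hoxa5 lies between 266.9 and 1103 in all libraries, Hoxb1 is near the floor in MEF and pre-iPS, Hoxc10 has overlapping values in MEF and pre-iPS and lower ones in iPS, and Hoxd12 does not exceed 1.05 units outside MEF.

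The third comparison was between the iPS lines, on whether reprogramming with rNetrin-1 left another Hox pattern. By limma few Hox genes were called, and the count depended on the tool and the fit. With 1 control line, the treatment and the line cannot be told apart. When the average of the 2 clones was set against the control, 1 Hox gene of 38 was called, where 2.11% of all genes were. edgeR on the recovered reads also called 1 (2.27% of all genes), and DESeq2 called 10 (2.99% of all genes). The gene called by limma was Hoxa11, at 267.9 and 377.5 in the control, 206.9 and 277.1 in clone 1 and 77.4 and 48.4 in clone 2. Clone 1 overlapped the control and clone 2 lay below both. The log2 fold change was -1.38 (SE 0.31, adjusted p = 0.0479), and the exact permutation p was 0.2, where 15 splits allow 0.0667 at the lowest. The call was lost in each of the 8 fits without a MEF or an iPS library. Without the control at passage 5, which leaves 1 control library, the log2 fold change was -2.30 for Hoxb4 and -2.59 for Hoxb6.

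Clone by clone, clone 2 against the control had 1 called Hox gene, where 2.42% of all genes were (8 by DESeq2, with 3.92% of all genes). It was Hoxa11 again (-2.36, SE 0.36, adjusted p = 0.0125), and Hoxa11as, which shares exon bases with it, was at 254.3 and 225.3 in the control, 261.9 and 334.6 in clone 1 and 76.4 and 74.4 in clone 2. Clone 2 against clone 1 had 1 called Hox gene, where 0.966% of all genes were, and it was Hoxa11 (-1.95, SE 0.36, adjusted p = 0.042). Clone 1 against the control had 1, where 1.41% of all genes were. That was Hoxd9, at 53.3 and 52.4 in clone 1, 8.70 and 15.6 in the control and 12.9 and 19.7 in clone 2 (2.08, SE 0.33, adjusted p = 0.0227), so clone 1 stood above the other two lines. The comparisons with the control share its 2 libraries. These calls also rest on single libraries. Hoxa11 in clone 2 against the control was not called without the control at passage 25 or clone 2 at passage 25, Hoxa11 between the clones in 7 of 10 fits that each left out a library, and Hoxd9 in 5 of 10.

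The median difference between the clones and the control was -1.33 over Hoxb, -0.26 over all Hox genes and -0.01 over all genes. The Hoxb median rested on the control libraries: it was -0.25 without the control at passage 25 and -2.45 without the control at passage 5, and the median over all Hox genes was 0.18 and -0.43. No Hoxb gene was called in the main limma fit, which has no passage block. DESeq2, also without the block, called Hoxb1, Hoxb4, Hoxb5, Hoxb6 and Hoxb8 lower in the clones (adjusted p = 0.0487, 0.00666, 0.00178, 0.0232 and 0.0313). In the main limma fit Hoxb1 differed by -2.78 (SE 0.81, adjusted p = 0.109), Hoxb5 by -2.76 (SE 0.82, adjusted p = 0.115) and Hoxb4 by -1.41 (SE 0.46, adjusted p = 0.148). Hoxb5 was at 45.5 and 280.5 in the control, 7.09 and 48.3 in clone 1 and 9.92 and 17.9 in clone 2. In each of the 3 lines Hoxb5 was higher at passage 25, and clone 1 at passage 25 overlapped the control at passage 5. With passage as a replicate block, Hoxb1, Hoxb4 and Hoxb5 were called lower in the clones and Hoxd9 higher, 5 genes in all with Hoxa11 (adjusted p = 0.0496, 0.0468, 0.0253, 0.0464 and 0.0387). In that blocked fit 3.3% of all genes were called. Clone 2 against the control had 5 Hox calls, where 4.16% of all genes were called, and clone 2 against clone 1 had 3, where 1.92% were. Rarb was the only activator called between the clones and the control, at 571.5 and 1070 in the control, 221.1 and 291.5 in clone 1 and 340.2 and 243.7 in clone 2 (-1.53, adjusted p = 0.0169).

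The control line at passage 25 was the highest of the 6 iPS libraries for 16 of 38 Hox genes, 9 of 10 Hoxb genes among them. Clone 1 at passage 25 was the highest for 13, with 7 of 11 Hoxa genes. How often each library was the highest over all genes was not computed. The Hoxb sum of the control at passage 25, 5323, was near the 5479 and 5388 of MEF, while the other iPS libraries had 479.0 to 1752. Different genes made up these sums. Hoxb1 was at 2014 in that library and at 1.23 and 2.10 in MEF, whereas Hoxb9 was at 152.3 there and at 1507 and 1473 in MEF. In the same library Cdx1 was at 87.6, against 16.4 to 41.2 in the other iPS libraries. Of its tested list, Cdx2 (14.6) lay inside the range of the other iPS libraries and Gsx1 (4.18) was the lowest. The neural gene Sox1 was at 1719, against 544.3 to 1392, and Pax6 was also highest there, at 1261 against 501.8 to 843.7. The other neural markers, Tubb3 (1433), Map2 (1167) and Neurod1 (110.6), lay inside the range of the other iPS libraries. The part of these genes in the Hox values was not tested.

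The last comparison set passage 25 against passage 5 over the 4 pre-iPS and iPS lines, with the line as a block. No Hox gene was called by limma, where 1.69% of all genes were, and 10 of 38 (26.3%) had an unadjusted p under 0.05, against 29.1% of all genes. The recovered reads gave 2 calls by edgeR (Hoxb1 and Hoxb8), where 1.87% of all genes were called. DESeq2 gave 3 (Hoxb3, Hoxb5 and Hoxb8), where 1.52% were. The difference was positive for 33 of 38 genes, against 8139 of 17075 over all genes. The median was 0.40 over the Hox genes, 1.01 over Hoxb and -0.01 over all genes. Hoxb8 was at 49.99 and 64.3 in pre-iPS, 25.1 and 239.9 in the control, 7.09 and 50.3 in clone 1 and 12.9 and 27.8 in clone 2, higher at passage 25 in all 4 lines. Its log2 fold change was 1.82 (SE 0.47, adjusted p = 0.05, just past the threshold before rounding). Hoxc13 had the lowest adjusted p (0.0274), but its fold change of 0.86 (SE 0.18) was under 1. It was at 35.7 and 54.7 in pre-iPS, 54.2 and 94.9 in the control, 40.8 and 76.0 in clone 1 and 56.5 and 129 in clone 2, again higher at passage 25 in each line.

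Hoxb1, Hoxb2 and Hoxb3 had higher values at passage 25 than at passage 5 in each of the 3 iPS lines and lower values in pre-iPS. Hoxb2 went from 334.6 to 1382 in the control, from 85.2 to 509.1 in clone 1 and from 105.1 to 192.7 in clone 2, but from 299.9 to 234.3 in pre-iPS. Hoxb3 went from 132.5 to 447.4, from 61.3 to 291.5 and from 81.3 to 147.0, with 296.9 and 291.9 in pre-iPS. Without either pre-iPS library these 3 genes were called, Hoxb1 at 1.99, Hoxb2 at 1.83 and Hoxb3 at 1.61. Over all 17075 genes, 170 were called without the pre-iPS library of passage 5 and 171 without that of passage 25. Each passage of a line is 1 library, so a passage effect within a line has no replicate.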

How the data were processed

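Poly(A) RNA libraries (unstranded TruSeq kit, 50 nt single reads, 10 libraries pooled in 1 lane) were made by the authors. The submitters' processing notes list FastQC, CASAVA 1.8.2, TopHat2 2.0.8b, HTSeq 0.5.3p9, edgeR and mm10, and the annotation and strand setting used in counting are not given in the sources used here. The authors deposited 1 table of signal values, namely edgeR pseudo-counts, which are read counts brought to a common library size. Whole reads were recovered for 100% of values (tolerance 0.05 read) and gave the depth. Counting intervals and the floor of 3 reads cover counting error only.

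The 17075 genes that reached a value of 10 in 2 or more libraries were fitted with limma 3.58.1 in R 4.3.3 (trend, log2(value + 1)) over all 10 libraries with 1 mean for each line. Fold changes on this scale understate those of low genes. Passage was tested over 8 libraries with the line as a block. Passage numbers pair the libraries of the pre-iPS and iPS lines: deviations from the line means correlated at 0.235 to 0.504 in all 6 pairs of lines, and another fit took the passage as a replicate block. The 2 libraries of each line differed by more than sampling noise (chi-square per degree of freedom 2.91 in MEF, 39.3 to 55.0 in the others) and were counted separately. Single genes were also tested by exact two-sided permutation of libraries. The fit was tested on simulated data. Exon lengths and overlaps came from GENCODE M21, which need not be the authors' annotation.

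The Hox genes and all gene lists were chosen with earlier results of these data known. Genes named were, for MEF against iPS, the 3 called genes of each cluster with the largest increase and every gene called lower or not called. For pre-iPS they were up to 6 called genes in each direction, for iPS lines and passages every called gene up to 6, and from each list up to 4 in each direction. The 5 highest Hox genes in iPS and, per kilobase, the highest of each cluster in MEF were named as well. A few genes that these rules name are not reported here, though counts, sums and medians include them. Hoxd13, Hoxc4, Hoxb4, Hoxb5, Hoxb8 for passage, Hoxb2, Hoxb3 and Hoxc13 for passage and Suz12 were chosen with their values in view. So were Tbx15, Irx3, Tbx3, Prrx2 and Cbx7 in pre-iPS, Rarb, Sox1 and Cdx1, and the list members printed beside Sox1 and Cdx1. The alternatives were pseudocounts of 5 and 0.5, no filter or a mean of at least 50, the adjusted p alone, quantile normalisation, the replicate block, a fit restricted to the lines under comparison and leaving out each library in turn. For sums, values per kilobase were used. edgeR 4.0.16 and DESeq2 1.42.0 on the recovered reads were added after seeing the data.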

Additional observations from a re-analysis of the deposited data

Results flagged for a closer look

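In the control iPS line at passage 25, 8 Hox genes stood apart from the other 5 iPS libraries by a gap wider than Dixon's 95% limit for 6 values. They were Hoxb1 (2014), Hoxb2 (1382), Hoxb4 (552.7), Hoxb5 (280.5), Hoxb6 (180.4), Hoxb8 (239.9), Hoxb9 (152.3) and Hoxc5 (67.8). The summed Hoxb value of 5323 and the summed value of the anterior paralog groups, 6727, stood apart in the same library. These are 10 of 45 values tested. The gaps were taken on the normalised values, not on the log2(value + 1) scale of the limma fits, and were not tested on that scale. A high value stands out less after a log transform. Chance flags about 1 in 20 groups only where values are normally distributed, which was not tested. Neighbouring genes of a cluster are not independent. The 6 libraries are of 3 lines and 2 passages, and the library is the only one of its line and passage, so it cannot be told apart from either.

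Hoxa11 differed between the 2 rNetrin-1-derived clones, each set against the control, by a tested log2 difference of -1.95 (clone 2 minus clone 1, limma adjusted p = 0.042). Hoxa11 was at 206.9 and 277.1 in clone 1 and 77.4 and 48.4 in clone 2.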

How the results depend on the processing

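The counts of called Hox genes for MEF against iPS and for pre-iPS against iPS or MEF stayed within 1.5 times under every alternative run. For the clones against the control (1 gene) the count was 2 with a pseudocount of 5, 0 with 0.5, 2 under quantile normalisation, 0 with only the lines compared in the fit, 5 with passage as a replicate block, 10 by DESeq2 and 0 to 3 with a library left out. For clone 1 against the control (1) it was 0 with only those lines, 3 by DESeq2 and 0 to 1 with a library left out. For clone 2 against the control (1) it was 0 with only those lines, 5 with the block, 8 by DESeq2 and 0 to 4 with a library left out. For clone 2 against clone 1 (1) it was 2 with a pseudocount of 5, under quantile normalisation and by edgeR, 0 with only those lines, 3 with the block and by DESeq2, and 0 to 1 with a library left out. For passage (0) it was 1 with a mean of at least 50, under quantile normalisation and with the adjusted p alone, 2 by edgeR, 3 by DESeq2 and 0 to 3 with a library left out. The replicate block changed no other count of calls beyond 1.5 times, and MEF has no blocked fit because its passage numbers are others. Summed values moved beyond 1 SD in pre-iPS for Hoxb (34.2% of MEF under quantile normalisation, 35.7% per kilobase), Hoxc (35.5% and 37.1%), Hoxd (11.7% under quantile normalisation), the central groups (63.5% per kilobase) and the posterior groups (29.4% per kilobase, and 19.6% in iPS). Of 900 alternatives to 47 named fold changes, 849 kept direction and side of the threshold, 39 lost the call, 4 gained it and 8 changed sign. The sign changes were in genes not called for MEF against iPS: Hoxa4 (0.18, quantile normalisation), Hoxd1 (-0.02 without MEF passage 4, up to 0.46 without MEF passage 2) and Hoxa5 (0.22 at the highest, without the control at passage 25, -0.18 without the control at passage 5, -0.06 without MEF passage 4, -0.05 without clone 1 at passage 5, -0.06 without clone 2 at passage 25, -0.03 by edgeR, -0.02 by DESeq2). The cause was not tested. With 2 libraries a line the smallest differences cannot be resolved, and a gene with under 3 reads in a group has only a bound or a counting interval.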
